A study of Arabidopsis thaliana with 16 samples.

Results

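The genes examined here are 3 Arabidopsis thaliana genes that encode small heat shock proteins, HSP23.5 (AT5G51440), HSP17.6B (AT2G29500) and HSP17.6C (AT1G53540). They are all the genes of the rule used, which takes the probe sets that the platform annotation gives to these loci, and each locus had 1 probe set of its own (248434_at, 266294_at and 260978_at), out of 13064 genes with a probe set of their own on the array. Affymetrix ATH1 arrays were used to compare the mutant glu1-2 with its wild type, Col-0, in rosette leaves and in roots, with 4 arrays in each of the 4 groups. The homozygous mutant is a single T-DNA insertion line in the Col-0 background, with the insertion in Fd-GOGAT1 (GLU1, AT5G04140). This gene encodes a glutamate synthase that uses ferredoxin and is found in plastids, with a mitochondrial location also reported. An effect of glu1-2 is therefore an effect of this line alone. Plants of both genotypes were grown in vitro on a medium with ammonium nitrate and 3% sucrose, without any heat treatment named in the labels, and were harvested when 18 days old, 2 h into a 16 h light period. The 4 arrays of a group are described as independent biological replicates.

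Small heat shock proteins are chaperones that bind partly unfolded proteins, without using ATP, and hold them in a state from which the large ATP-dependent chaperones can refold them. In plants they form an unusually large family, encoded in the nucleus, whose members act in the cytosol and nucleus, in the endoplasmic reticulum, in plastids, in mitochondria and in peroxisomes. Most are barely expressed in vegetative tissue at normal growth temperature and are switched on by heat shock transcription factors, and several also respond to oxidative stress. HSP23.5 is imported into mitochondria, and HSP17.6B and HSP17.6C are cytosolic proteins of class I.

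The values are expression measures from RMA (robust multichip average) on a linear scale, called intensities below, and all tests were made on their log2. The median intensity of an array was 97 to 110, and replicate arrays of a group correlated with r from 0.992 to 0.997 over 22266 probe sets. No detection calls were used, and 30.6% of all values lay under an intensity of 32. A group mean under 32 was treated as no clear signal above background. A fold or difference against such a group is given as a lower bound, apart from its sampling error. The annotation used here names no probe set for Fd-GOGAT1 itself, so that gene could not serve as a check of the genotypes. Organ markers followed the labels. The summed intensity of 2 measured leaf markers (LHCB4.1 and RCA, of 10 listed) was 17283 to 22485 in glu1-2 leaves, 22212 to 23399 in Col-0 leaves, 3251 to 3529 in glu1-2 roots and 2175 to 2714 in Col-0 roots. That of 3 measured root markers (EXPA7, PYK10 and AT5G17820, of 14 listed) was 1091 to 1543 in glu1-2 leaves, 1219 to 1532 in Col-0 leaves, 11896 to 14518 in glu1-2 roots and 12220 to 14454 in Col-0 roots. In whole organs, a transcript made by more cells and one made more strongly per cell cannot be told apart.

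Transcripts of the mitochondrial HSP23.5 and of the cytosolic HSP17.6B were strongly induced in glu1-2 leaves and not in glu1-2 roots, whereas HSP17.6C stayed at the lowest intensities in every group. HSP23.5 rose at least 11.0-fold and HSP17.6B at least 4.09-fold in mutant leaves. In the wild type both genes were lower in leaves than in roots. In glu1-2 HSP23.5 was higher in leaves than in roots, and HSP17.6B in leaves came within 0.22 of its root level on the log2 scale.

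**Figure D1:**
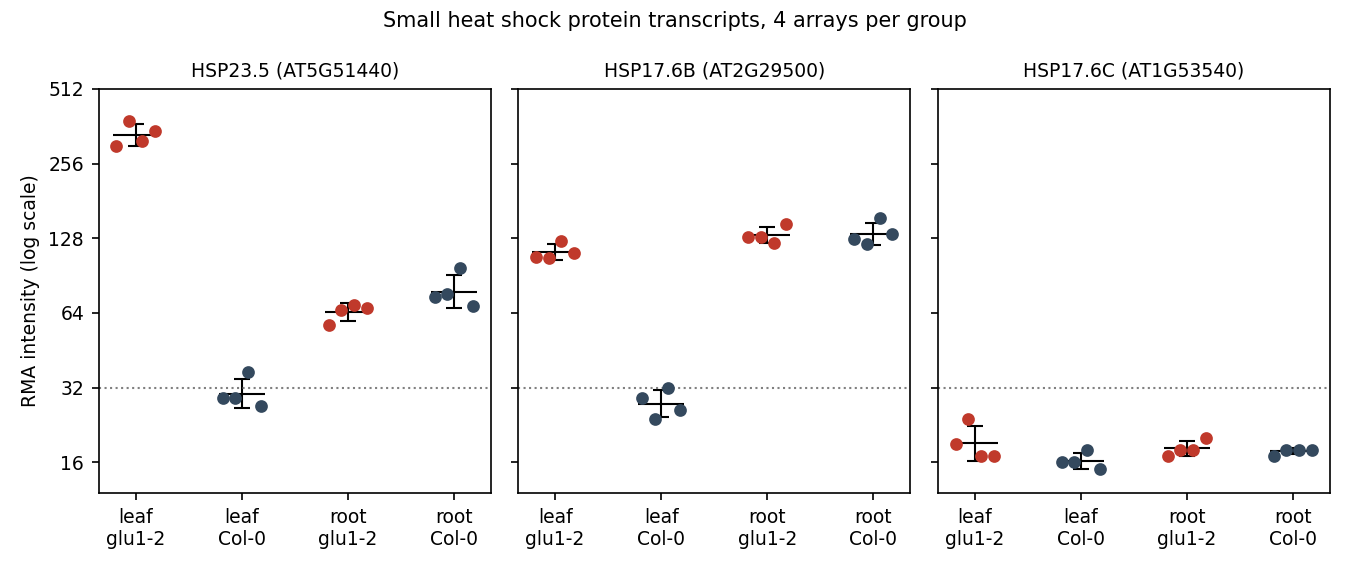
RMA intensity (log scale) of the 3 genes on each of the 16 arrays, with glu1-2 in red and Col-0 in dark blue. Points are single arrays, horizontal bars with whiskers are the mean ± SD of the log2 values (n = 4), and the dotted line marks an intensity of 32. The 4 glu1-2 leaf arrays lie at 301 to 381 for HSP23.5 and at 107 to 125 for HSP17.6B, while all 16 arrays lie at 15 to 24 for HSP17.6C.

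HSP23.5 had intensities of 301, 381, 315 and 346 in glu1-2 leaves, against 29, 29, 37 and 27 in Col-0 leaves. The lowest mutant array was 8.14 times the highest wild type array. The log2 intensity was 8.39 ± 0.15 in glu1-2 and 4.92 ± 0.20 in Col-0 leaves (SD, n = 4 each), which gave a log2 difference of 3.47 (standard error 0.113, limma, Storey q = 5.01e-10). The wild type mean lay just under an intensity of 32, so that the 11.0-fold difference (95% interval 9.31 to 13.1) is a lower bound.

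HSP17.6B had intensities of 108, 107, 125 and 112 in glu1-2 leaves and of 29, 24, 32 and 26 in Col-0 leaves. The groups were clearly apart, with the lowest mutant array at 3.34 times the highest wild type array. The log2 intensity was 6.82 ± 0.10 in glu1-2 and 4.79 ± 0.18 in Col-0 leaves (SD, n = 4 each), a log2 difference of 2.03 (standard error 0.101, limma, q = 1.98e-08). The 4.09-fold difference (95% interval 3.51 to 4.77) is again a lower bound, because the wild type mean lay under 32. Since both rises are lower bounds, the genes cannot be ordered by them.

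HSP17.6C, which belongs to the same cytosolic class as HSP17.6B, had intensities of 19, 24, 17 and 17 in glu1-2 leaves and of 16, 16, 18 and 15 in Col-0 leaves. The groups overlapped, and no array of either reached 32. The log2 difference of 0.23 (95% interval -0.02 to 0.48, standard error 0.115) did not pass the threshold (limma, q = 0.0734). Class I genes are similar in sequence, and how far a probe set responds to transcripts of its relatives was not tested.

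Of the 3 genes, 2 were thus called higher in leaves and 0 lower, where 27.9% of all probe sets were called, 14.2% as higher and 13.7% as lower. The median log2 difference over the 3 genes, which is the value of HSP17.6B, was 2.03, against -0.02 over all probe sets. The genes were chosen with earlier results of these data known, so neither the count nor the median is a test of the group. The groups of arrays did not overlap for HSP23.5 and HSP17.6B, which was also true of 32.5% of all probe sets in leaves. The exact permutation test of 4 against 4 arrays gave p = 0.0286 for both, the smallest value it can give, and 0.0857 for HSP17.6C (two-sided). These calls and differences held when each array was left out in turn, with log2 differences of 3.40 to 3.56 for HSP23.5 and 1.96 to 2.10 for HSP17.6B. The summed root markers overlapped between glu1-2 and Col-0 leaves, and 0 of the 3 measured were called there (limma, q under 0.01). In leaves that sum is mostly PYK10, at 1025 to 1484 in glu1-2 and 1162 to 1453 in Col-0. EXPA7 and AT5G17820 had leaf means near 32.

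In roots 0 of the 3 genes passed the threshold, which 2.84% of all probe sets did, 1.58% as higher and 1.26% as lower (limma, q under 0.01). For none of the 3 were the groups of arrays separate, as they were for 11.3% of all probe sets. At an unadjusted p under 0.05 HSP23.5 passed, as did 18.2% of all probe sets. HSP23.5 had intensities of 57, 66, 69 and 67 in glu1-2 roots and of 74, 76, 97 and 68 in Col-0 roots. The mutant values sat in the lower part of the range, but the groups overlapped by a single array, the mutant's highest (69) against the wild type's lowest (68). HSP23.5 thus differed by -0.27 on the log2 scale, with a 95% interval from -0.50 to -0.04 and a standard error of 0.106 (limma, q = 0.143, exact permutation test, two-sided, p = 0.0571). It is of the opposite sign to the difference in leaves, at an intensity well above 32.

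HSP17.6B had nearly the same intensities in both genotypes, with 129, 130, 123 and 146 in glu1-2 roots and 127, 121, 154 and 133 in Col-0 roots. The log2 difference was -0.02 (standard error 0.0857, limma, q = 0.735), and the 95% interval from -0.20 to 0.17 corresponds to 0.868-fold to 1.13-fold. The rise of 4.09-fold seen in leaves lies outside this interval. HSP17.6C remained at 17, 18, 18 and 20 in glu1-2 roots and at 17, 18, 18 and 18 in Col-0 roots, again below 32 on all arrays (log2 difference 0.04, limma q = 0.637). The leaf marker RCA was called higher in glu1-2 roots (log2 difference 0.64, q = 0.000407), and its part in the root values was not tested.

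Whether glu1-2 acted differently in leaves and roots was tested by a contrast of its own over all 16 arrays. The effect of glu1-2 was more positive in leaves by 3.74 on the log2 scale for HSP23.5 (standard error 0.161, limma q = 3.92e-13) and by 2.05 for HSP17.6B (standard error 0.136, q = 3.27e-10). For HSP17.6C it was 0.19 (q = 0.152). This contrast was called for 25.8% of all probe sets, 13% in this direction and 12.8% in the other. Both values rest on Col-0 leaf means under 32 and are lower bounds.

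Both induced genes were lower in leaves than in roots of the wild type. HSP23.5 averaged a log2 intensity of 4.92 ± 0.20 in Col-0 leaves and 6.29 ± 0.22 in Col-0 roots (SD, n = 4 each), a log2 difference of -1.37 (standard error 0.123, limma q = 6.32e-08). With the Col-0 leaf mean under 32, the leaves were at least 2.58-fold lower. In Col-0 38.2% of all probe sets were called lower and 36.9% higher in leaves, and the arrays of both organs were separate for 64.6%. In glu1-2 the leaves stood above the roots by 2.37 (standard error 0.0927, q = 5.01e-11), or 5.18-fold, with leaf arrays at 301 to 381 and root arrays at 57 to 69. In glu1-2 33.8% of all probe sets were called higher and 33.7% lower in leaves, with separate arrays for 60.1%. This change of order, below the roots in Col-0 and above them in glu1-2 with both differences called, was found for 476 probe sets or 2.14% of those tested. From high to low, HSP23.5 stood at a mean intensity (from the mean log2 value) of 334 in glu1-2 leaves, 78.0 in Col-0 roots, 64.6 in glu1-2 roots and 30.3 in Col-0 leaves, and the roots of both genotypes, which are neighbours in this order, did not differ past the threshold. The other neighbours (glu1-2 leaves with Col-0 roots, and glu1-2 roots with Col-0 leaves) differ in both organ and genotype and were not tested, and their arrays did not overlap.

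HSP17.6B was also lower in leaves than in roots of Col-0, with leaf arrays at 24 to 32, root arrays at 121 to 154 and a log2 difference of -2.27 (standard error 0.105, limma q = 6.65e-11). The Col-0 leaf mean lay under 32 here too, so that the leaves were at least 4.83-fold lower. In glu1-2 this difference was -0.22 (standard error 0.0805, q = 0.00577), with leaf arrays at 107 to 125 and root arrays at 123 to 146. The leaf and root arrays of glu1-2 overlapped by a single pair of arrays (exact permutation test, two-sided, p = 0.0571), and the call ended under several other settings, with q = 0.0271 by Benjamini-Hochberg adjustment. Mean intensities were 133 in Col-0 roots, 132 in glu1-2 roots, 113 in glu1-2 leaves and 27.6 in Col-0 leaves. Only Col-0 leaves stood apart from all other groups on the arrays. HSP17.6C did not differ past the threshold between leaves and roots of glu1-2 (0.06, q = 0.132) or of Col-0 (-0.13, q = 0.0228), where 67.4% and 75.2% of all probe sets were called.

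A list of 15 further small heat shock protein genes was drawn from general knowledge of the family, with earlier results of these data known. Of these, 7 had a probe set of their own in the annotation. In leaves 1 was called higher, 1 lower and 5 were not called, with a median log2 difference of -0.11. Of all 13064 genes with a probe set of their own, 25.7% were called in leaves, 13.2% as higher and 12.6% as lower, and 2.46% in roots, 1.34% as higher and 1.13% as lower. The largest rise among the 7 further family members was that of AT4G21870, with intensities of 210 to 252 in glu1-2 leaves and 157 to 211 in Col-0 leaves. Its log2 difference of 0.36 (standard error 0.101, limma q = 0.00805) was small beside those of HSP23.5 and HSP17.6B, and the call ended on leaving out any 1 of several leaf arrays, with a replicate block and by Benjamini-Hochberg adjustment. AT1G54050 fell, with intensities of 121 to 152 in glu1-2 leaves and 176 to 204 in Col-0 leaves (log2 difference -0.47, standard error 0.0936, q = 0.00092).

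**Figure D2:**
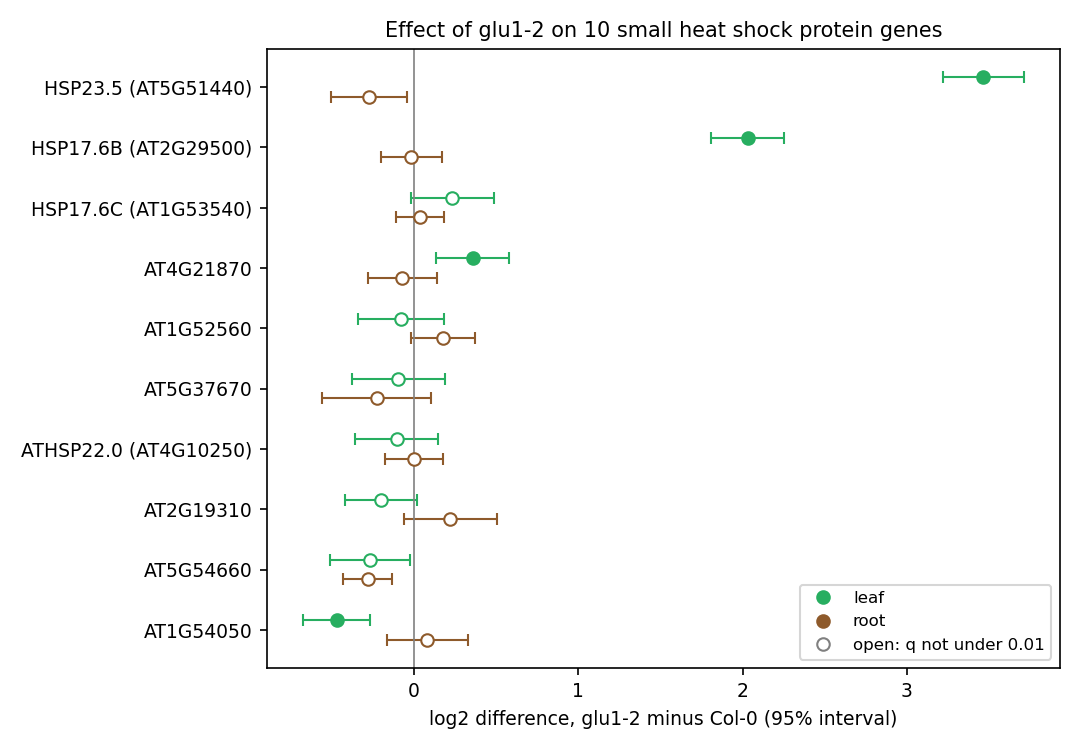
Log2 difference between glu1-2 and Col-0 (x axis, with 95% intervals from limma) in leaves (green) and roots (brown) for the 10 small heat shock protein genes with a probe set of their own; filled points passed q under 0.01. Only HSP23.5 (3.47) and HSP17.6B (2.03) in leaves lie beyond 1, and no point for roots is filled.

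The other 5 measured genes of the family did not pass in leaves. The log2 difference was -0.27 for AT5G54660, -0.20 for AT2G19310, -0.11 for ATHSP22.0 (AT4G10250), which encodes the protein of the endoplasmic reticulum, -0.10 for AT5G37670 and -0.08 for AT1G52560. The last 3 had means under or about an intensity of 32 in leaves of both genotypes. AT2G19310 (335 to 439 in glu1-2 and 379 to 456 in Col-0 leaves) and AT5G54660 (95 to 116 in glu1-2 and 103 to 145 in Col-0 leaves) were well above it. In roots 0 of the 7 were called (limma, q under 0.01), with log2 differences from -0.28 for AT5G54660 to 0.22 for AT2G19310. At an unadjusted p under 0.05, 5 of the 10 genes of the family passed in leaves, where 41.9% of all probe sets did, and 2 of the 10 in roots, where 18.2% did, so that these counts lie near the background.

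Where called, the organ differences of the other family members had the same sign in both genotypes. AT4G21870 was higher in leaves than in roots by 2.32 on the log2 scale in glu1-2 and by 1.89 in Col-0, AT1G54050 by 0.96 in glu1-2 and 1.51 in Col-0, and AT2G19310 by 0.98 in glu1-2 and 1.40 in Col-0 (limma, all called). AT5G54660 was lower in leaves, with -0.45 in glu1-2 and -0.47 in Col-0. Among all 10, the change in the effect between organs was called for HSP23.5, HSP17.6B and AT1G54050 (organ difference -0.55, q = 0.00394). This contrast was called for 25.8% of all probe sets, so that the count lies near the background.

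**Figure D3:**
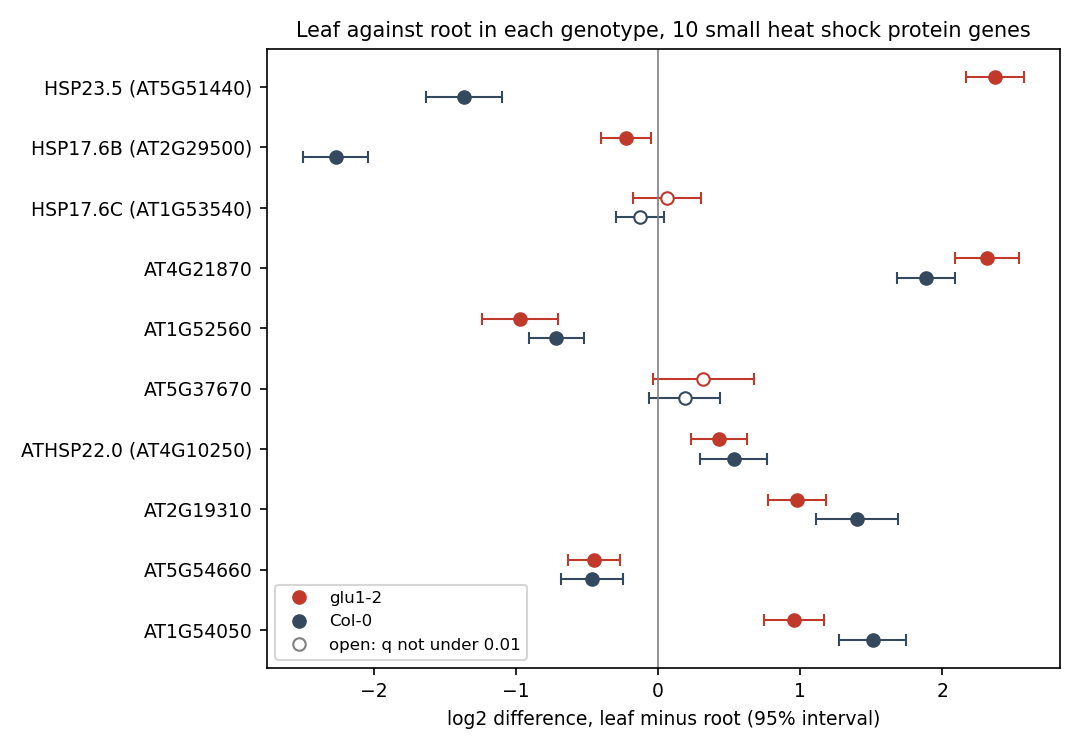
Log2 difference between leaf and root (x axis, with 95% intervals from limma) in glu1-2 (red) and Col-0 (dark blue) for the same 10 genes; filled points passed q under 0.01. HSP23.5 is the only gene of the 10 whose difference has opposite signs with both called, 2.37 in glu1-2 and -1.37 in Col-0, and the value of HSP17.6B is -0.22 in glu1-2 and -2.27 in Col-0.

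Small heat shock proteins pass their clients on to larger chaperones, and the genes for these and for their regulators are only thinly covered by the annotation. Of 21 heat shock transcription factor genes 0 had a named probe set, of 26 genes for HSP60, HSP70, HSP90 and HSP100 chaperones 2 had one, and of 14 other heat stress genes 3. Of the large chaperone genes AT3G09440 rose by 0.45 in glu1-2 leaves (standard error 0.082, limma q = 0.00047), with intensities of 1033 to 1207 in glu1-2 and 750 to 843 in Col-0. Hsp70-2 (AT5G02490), which encodes an HSP70, did not pass (-0.19, q = 0.132). BOB1 (AT5G53400), a chaperone-like protein needed for thermotolerance, had intensities of 326 to 389 in glu1-2 leaves and 202 to 237 in Col-0 leaves, a log2 difference of 0.76 (q = 1.6e-05). Hop3 (AT4G12400), a co-chaperone of HSP70 and HSP90 whose gene is strongly induced by heat, did not pass and read 24 to 27 in glu1-2 leaves and 25 to 31 in Col-0 leaves, below 32 on all 8 arrays. AT5G48570 (FKBP65, ROF2), a heat-induced peptidyl-prolyl isomerase, likewise did not pass (0.00, q = 0.483). In roots 0 of these 5 genes were called (limma, q under 0.01), with log2 differences between -0.28 and 0.07. Of all genes with a probe set of their own, 25.7% were called in leaves, 13.2% as higher, and 2.46% in roots. A count of 0 among so few genes therefore says little about roots.

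HSP23.5, as a mitochondrial protein, was also set beside nuclear genes that respond to disturbed mitochondria. Of 13 listed, 4 had a probe set of their own, and all 4 were called higher in leaves and 0 in roots (limma, q under 0.01). Their median log2 difference in leaves was 2.01. Of all genes with a probe set of their own, 13.2% were called higher in leaves and 2.46% were called in roots. The list was chosen with earlier results of these data known, and the annotation named no probe set of their own for its other genes. AT2G21640 had intensities of 751 to 865 in glu1-2 leaves and 67 to 75 in Col-0 leaves, and its log2 difference of 3.52 (standard error 0.0832, q = 3.84e-11) starts from a wild type mean well above 32. NDB4 (AT2G20800) and NDB2 (AT4G05020) encode NAD(P)H dehydrogenases of the mitochondrial inner membrane that bypass complex I. NDB4 read 153 to 191 in glu1-2 leaves and 20 to 36 in Col-0 leaves, with a log2 difference of 2.79 (q = 6.26e-08) from a wild type mean under 32. NDB2 read 464 to 557 in glu1-2 leaves and 181 to 288 in Col-0 leaves (1.24, q = 9.19e-06), and AT5G09570 read 59 to 89 in glu1-2 and 47 to 56 in Col-0 leaves (0.58, q = 0.00164). NDB2 was lower in leaves than in roots in both genotypes, with log2 differences of -0.79 in glu1-2 and -2.02 in Col-0. HSP17.6B had the same signs, but its call in glu1-2 depended on the settings.

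**Figure D4:**
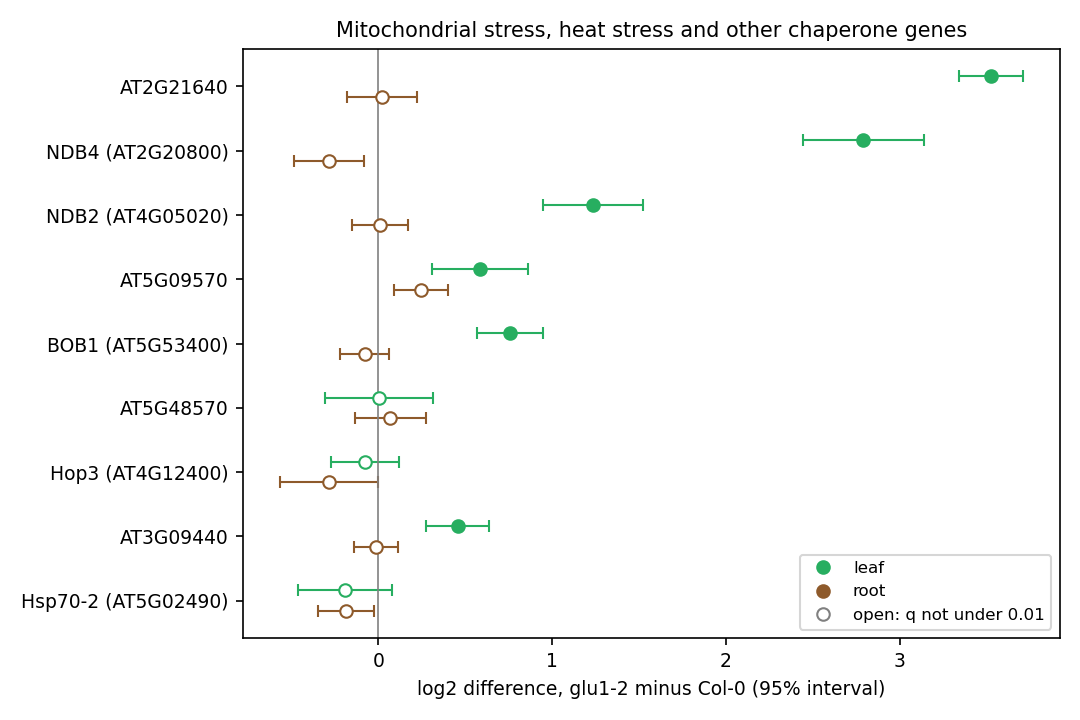
Log2 difference between glu1-2 and Col-0 (x axis, with 95% intervals from limma) in leaves (green) and roots (brown) for 4 mitochondrial stress genes (AT2G21640 to AT5G09570), 3 other heat stress genes (BOB1 to Hop3) and 2 large chaperone genes; filled points passed q under 0.01. All 4 mitochondrial stress genes are filled in leaves, from 0.58 to 3.52, as are 1 of the 3 heat stress genes (0.76) and 1 of the 2 large chaperone genes (0.45). No point for roots is filled. Of all genes with a probe set of their own, 13.2% were called higher in leaves and 2.46% were called in roots.

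Among 5469 genes with a probe set of their own and a log2 range of at least 1, those whose profile was most like that of HSP23.5 over the 16 arrays were AT4G01870 (Pearson r = 0.982), AT5G66540 (0.975) and AT5G17380 (0.975). AT4G01870, annotated as related to the bacterial TolB protein, rose by 2.64 in glu1-2 leaves and AT5G17380, of the pyruvate decarboxylase family, by 1.48 (limma, q = 5.64e-09 and 1.42e-07). HSP17.6B was most like GSTU25 (AT1G17180, a tau class glutathione transferase, r = 0.987), AT4G13180 (a short-chain dehydrogenase, 0.987) and CYTC-2 (AT4G10040, cytochrome c, 0.987). GSTU25 rose by 5.53 and CYTC-2 by 1.12 in glu1-2 leaves (q = 3.11e-11 and 3.3e-07). In glu1-2 roots AT4G13180 was called lower (-0.35, limma q = 0.00303), unlike HSP17.6B. GSTU25 (-0.30, q = 0.0148) and CYTC-2 (-0.11, q = 0.391) did not pass there. The correlation between HSP23.5 and HSP17.6B themselves was 0.605. The highest correlations of HSP17.6C were 0.764 or less and rest on values at background. All these arrays fall into 4 groups, whose differences set r, so that the values only describe likeness of the group levels.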

How the data were processed

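RNA from rosette leaves and roots of glu1-2 and Col-0 (4 arrays each) had been hybridised to Affymetrix ATH1 arrays. The intensities were deposited after RMA by the authors (quantile normalization, then summary of probes by a robust linear fit, version not given in the sources used here), as whole numbers on the linear scale from 6 to 18391. They were taken to log2 without further normalization. Rounding moves a log2 value by up to 0.115 at the lowest intensity. Of 22279 probe sets, 13 controls were left out. The platform annotation gives 1 gene for 13216 of the others, several for 491 and none for 8559, and 75 single entries had no match in the RefSeq gene table. Where a gene had several probe sets, the brightest on average was used. The depth of an array is not defined, and the number of arrays limits the precision.

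Tests were two-sided moderated tests in limma 3.58.1 (R 4.3.3), each organ or genotype alone over 8 arrays, unpaired, and the organ difference over 16. Storey q-values were computed over all probe sets (spline with 3 degrees of freedom over lambda up to 0.95), with a threshold of 0.01 as in the methods. The procedure was also run on simulated data. These were drawn independently for each probe set, with few probe sets changed, so they differ from the arrays used here. The members and lists were chosen with earlier results of these data known. Named genes are the 3 members, all measured genes of the family, up to 4 called genes of each other list (by largest difference), and the 3 genes with a log2 range of at least 1 most like each member. Uncalled genes of the heat stress, large chaperone and marker lists fall outside this rule and were named after their values were seen. The settings varied were the adjustment (Benjamini-Hochberg), a replicate block, a joint fit of 16 arrays, the dimmest 0.25 of probe sets left out, arrays shifted to a common median, quantile normalization repeated, robust moderation with an intensity trend, and each array left out in turn. Sequences and genome coordinates were not used here.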

Additional observations from a re-analysis of the deposited data

Results flagged for a closer look

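The effect of glu1-2 differed between the organs for HSP23.5 (AT5G51440), by 3.74 on the log2 scale, and for HSP17.6B (AT2G29500), by 2.05, each past the threshold in the contrast over all 16 arrays (limma, q under 0.01). In Col-0 roots, replicate 1 of HSP17.6C (AT1G53540) stood apart from the other 3 arrays, with a gap to its neighbour equal to the whole range of the group (ratio 1). Its intensity was 17 and that of the others 18, a single step of the rounding of the deposited values. By chance about 1 in 20 groups of 4 arrays would be singled out in this way, and 12 groups were looked at.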

How the results depend on the processing

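The leaf effects, the organ differences and the Col-0 organ comparisons of HSP23.5 and HSP17.6B, and the glu1-2 organ comparison of HSP23.5, kept their direction and their call under every alternative run. The glu1-2 organ comparison of HSP17.6B lost its call by Benjamini-Hochberg adjustment (-0.22), with arrays shifted to the same median (-0.14) and with repeated quantile normalization (-0.17), and ranged from -0.27 to -0.17 without single arrays (q up to 0.0126, lost without leaf glu1-2 replicate 1 or 2 or root glu1-2 replicate 4). The Col-0 organ comparison of HSP17.6C was 0.010 with arrays shifted and -0.31, with a call, after repeated quantile normalization, and -0.18 to -0.093 without single arrays, called without leaf Col-0 replicate 3. Its glu1-2 organ comparison was -0.051 after repeated quantile normalization and -0.046 to 0.12 without single arrays. In roots the difference was -0.34 to -0.17 for HSP23.5, the smallest without root Col-0 replicate 3 and none called, -0.065 to 0.054 for HSP17.6B, and -0.0069 to 0.071 for HSP17.6C without single arrays. Without leaf glu1-2 replicate 2 the leaf effect of HSP17.6C was 0.12 and its organ difference 0.084, neither called. The shift to the same median moved all differences between leaf and root by 0.14 in Col-0 and 0.08 in glu1-2. The dimmest 0.25 of probe sets includes HSP17.6C, which has no value without it.

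Of the other small heat shock protein genes, 0 were higher in leaves by Benjamini-Hochberg adjustment, with a replicate block or with arrays shifted, and 0 to 1 higher and 1 to 2 lower without single arrays. The count of 0 higher arose without leaf glu1-2 replicate 1, 3 or 4 or leaf Col-0 replicate 2, 3 or 4. In roots 2 leaf markers in place of 1 were higher without the dimmest probe sets and with an intensity trend. Over all probe sets, 352 were higher and 280 lower in roots, which became 146 and 103 with a replicate block, 536 and 450 with an intensity trend, and 210 to 284 and 128 to 216 without single arrays. Same-numbered arrays of glu1-2 and Col-0 had deviations correlated by -0.03 to 0.11 for leaves and by -0.04 to 0.13 for roots. Between same-numbered leaf and root arrays the correlations were -0.01 to 0.07 in Col-0 and -0.01 to 0.13 in glu1-2. Such weak correlations do not show a pairing by replicate number and cannot exclude one. The replicate block changed no call of the 3 genes.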
